A study of Homo sapiens with 8 samples.

Results

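The genes described here are 43 symbols of the endoplasmic reticulum (ER) stress response and of membrane insertion at the ER. They fall into 3 classes: stress sensors and ATF4 targets, ER folding and degradation, and the SEC61 and EMC complex. They were found by symbol in a deposited expression table of 11530 genes, which held 41 of the 43. All 41 were among the 11257 genes whose values passed the filter for testing. ATF3, a stress-induced transcription factor, and DERL3, a degradation channel component, were not analysed here. RNA was measured by polyadenylated RNA sequencing in MonoMac 6, an established human line from acute monocytic leukaemia. The treated group was 4 libraries of cells given human APRIL, the cytokine encoded by TNFSF13, at 100 ng/mL for 24 h in serum-free medium. The reference was 4 libraries of cells without APRIL. Both groups had unnamed baseline cytokines in RPMI, and the line was grown in 10% serum. Whether control cells kept that serum is not stated. APRIL and a difference in serum therefore cannot be told apart. The labels number the libraries without saying whether they came from separate cultures, so every p-value reflects variation among these 8 libraries, which may be technical only.

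The ER folds and glycosylates secreted and membrane proteins. When unfolded proteins build up, 3 membrane sensors respond: IRE1alpha (ERN1), PERK (EIF2AK3) and ATF6. IRE1alpha splices XBP1 mRNA, ATF6 is cut to release a transcription factor, and PERK phosphorylates eIF2alpha, which slows translation while allowing that of ATF4. XBP1 and ATF6 drive chaperones and degradation genes, and ATF4 drives amino acid and stress genes such as ASNS, CHAC1, TRIB3 and DDIT3. Newly made membrane and secreted proteins enter the ER through the SEC61 channel, and the ER membrane protein complex (EMC) inserts tail-anchored proteins and first transmembrane segments. Splicing of XBP1, cleavage of ATF6 and translation of ATF4 are not read by a gene-level RNA measurement.

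The promoters of several members carry the short elements through which these factors are known to act, and the clearest matches are shown to tie the response genes to their readouts. The sequences are RefSeq promoters on GRCh38.p14, searched over the 250 bases before the gene start on both strands, and a window was searched for 38 of the 41 members. The ER stress response element (ERSE) reads CCAAT, 9 bases of any kind, then CCACG, and ATF6 binds it together with NF-Y. It was present in 5 of 38 members (13.2%) and in 25 of 27303 genes (0.0916%). Of those genes, 8221 were in the expression table, as the members are, and 15 of the 8221 had it (0.18%). The members were listed as genes of this response, so the shares are a description. Capitals mark the element, and each sequence is written 5′ to 3′ on the gene's strand, so that CALR and CRELD2 show the reverse complement.

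PDIA6 (chr2:10812838-10812886, minus strand): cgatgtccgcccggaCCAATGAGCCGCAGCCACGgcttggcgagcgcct
CANX (chr5:179698763-179698811, plus strand): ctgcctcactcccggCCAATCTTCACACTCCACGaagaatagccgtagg
CALR (chr19:12938369-12938417, plus strand): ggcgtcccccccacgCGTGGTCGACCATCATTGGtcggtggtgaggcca
XBP1 (chr22:28800588-28800636, minus strand): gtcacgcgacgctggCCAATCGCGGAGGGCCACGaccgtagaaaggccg
CRELD2 (chr22:49918539-49918587, plus strand): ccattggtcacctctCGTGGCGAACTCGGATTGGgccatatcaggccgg

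Another form, ERSE-II, reads ATTGG, 1 base of any kind, then CCACG. It was present in HERPUD1 and SDF2L1, 2 of 38 members (5.26%), and in 18 of 27303 genes (0.0659%). Of the 8221 genes in the expression table, 11 had it (0.134%). SDF2L1 shows its reverse complement. The amino acid response element bound by ATF4, searched as TGATGNAA, was present in ASNS, CHAC1, HERPUD1 and PPP1R15B, 4 of 38 members (10.5%). The element was in 1061 of 27303 genes (3.89%) and in 182 of the 8221 (2.21%). It is shown for 2 ATF4 targets, with CHAC1 as the reverse complement. The core of the XBP1 element, TGACGTGG, was in the window of 0 of 38 members. It was in that of 213 of 27303 genes (0.780%) and of 83 of the 8221 (1.01%). Matches to different motifs overlapped 0 times in the members' windows, and a match describes letters and not a bound site.

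HERPUD1, ERSE-II (chr16:56932010-56932050, plus strand): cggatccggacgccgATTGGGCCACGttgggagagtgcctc
SDF2L1, ERSE-II (chr22:21642099-21642139, plus strand): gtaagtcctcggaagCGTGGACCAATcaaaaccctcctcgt
ASNS, ATF4 element (chr7:97872454-97872491, minus strand): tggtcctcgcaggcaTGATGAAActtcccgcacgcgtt
CHAC1, ATF4 element (chr15:40953247-40953284, plus strand): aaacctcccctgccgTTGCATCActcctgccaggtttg

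The deposited values are log2 expression after TMM scaling (trimmed mean of M values), and a change is APRIL minus control in log2 units with its standard error, from limma with 4 libraries per group. The headers of the library columns give only the group, so columns are numbered 1 to 4 within each group as they stand in the file. Reads recovered from the values came to between 927147 and 5309525 in the APRIL libraries and between 1373386 and 2948657 in the control libraries. APRIL column 3 was the shallowest library and stood apart: it held the highest or lowest of the 8 values for 66.5% of tested genes and for 34 of the 41 members (82.9%). Changes that moved by over 1.5 times or turned sign without it are given both ways. Of 20 markers of monocytic leukaemia cells, 17 were in the table, among them CD14, CD33, LYZ and SPI1, and their summed level lay between 12.61 and 12.71 in APRIL libraries and between 12.75 and 12.9 in control libraries (log2). Of markers of other cell types, 2 of 10 T and NK cell markers (none of the CD3 genes), 5 of 10 B and plasma cell markers, 1 of 10 erythroid markers and 0 of 12 fibroblast, epithelial and endothelial markers were in the table. The T and NK cell sum, from CD8A and NKG7, lay between 10.86 and 12.2 with APRIL and between 10.75 and 10.93 in controls, and its part in the results was not tested. The B and plasma cell sum was 6.638 to 6.976 with APRIL and 6.645 to 6.876 in controls, and the erythroid sum, EPOR alone, 4.498 to 5.674 with APRIL and 4.168 to 5.039 in controls. In RNA from whole cultures, fewer cells of a type and less RNA per cell cannot be told apart.

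No member passed the adjusted threshold of 0.05 between APRIL and control cells (0 of 41; background 0.0% of 11257 genes). The smallest adjusted p among members was 0.3999 (limma, Benjamini-Hochberg over 11257 genes), and 7 members had an unadjusted p under 0.05. The voom fit on recovered reads also called 0, of 36 members, with 5 at an unadjusted p under 0.05 (13.9%, background 10.9%). Those 7 make up 17.1% of the members, against 11.9% of all tested genes. Higher with APRIL were the ATF4 targets CHAC1 and TRIB3, the chaperone cofactor SDF2L1 and the insertase subunit EMC9, 4 members against a background of 6.25%. Lower with APRIL were the sensor kinase EIF2AK3, the lectin chaperone CANX and the mannosidase EDEM3, 3 members against a background of 5.69%. With 1 library left out, the count of members moved with that of all genes. It was 10 without APRIL column 2 (24.4%, background 20%), 4 without APRIL column 3 (9.76%, background 9.28%), 4 without APRIL column 4 (9.76%, background 5.94%) and 3 without control column 1 (7.32%, background 4.50%).

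The 41 members had a median change of +0.12, with 28 positive and 13 negative, against a median of -0.01 and 49.3% positive changes over all tested genes. The median by class was +0.01 for stress sensors and ATF4 targets, +0.11 for ER folding and degradation and +0.22 for the SEC61 and EMC complex. Without APRIL column 3 these medians were -0.08, +0.07 and +0.04, and that of all members +0.05. The mean deviation of the members from their average over the libraries was +0.01, -0.05, +0.26 and +0.02 in the APRIL libraries, in column order, against -0.15, 0.00, -0.06 and -0.02 in the control libraries. The high value of 1 APRIL library and the low value of 1 control library lay outside the range of the other 6. Only EMC9 had all 4 APRIL values above all 4 control values, against 3.62% of tested genes, and EIF2AK3, CANX and EMC1 had all 4 below, against 4.19%. Together these are 4 of 41 members (9.76%), near the 7.81% of tested genes whose groups did not overlap.

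**Figure D1:**
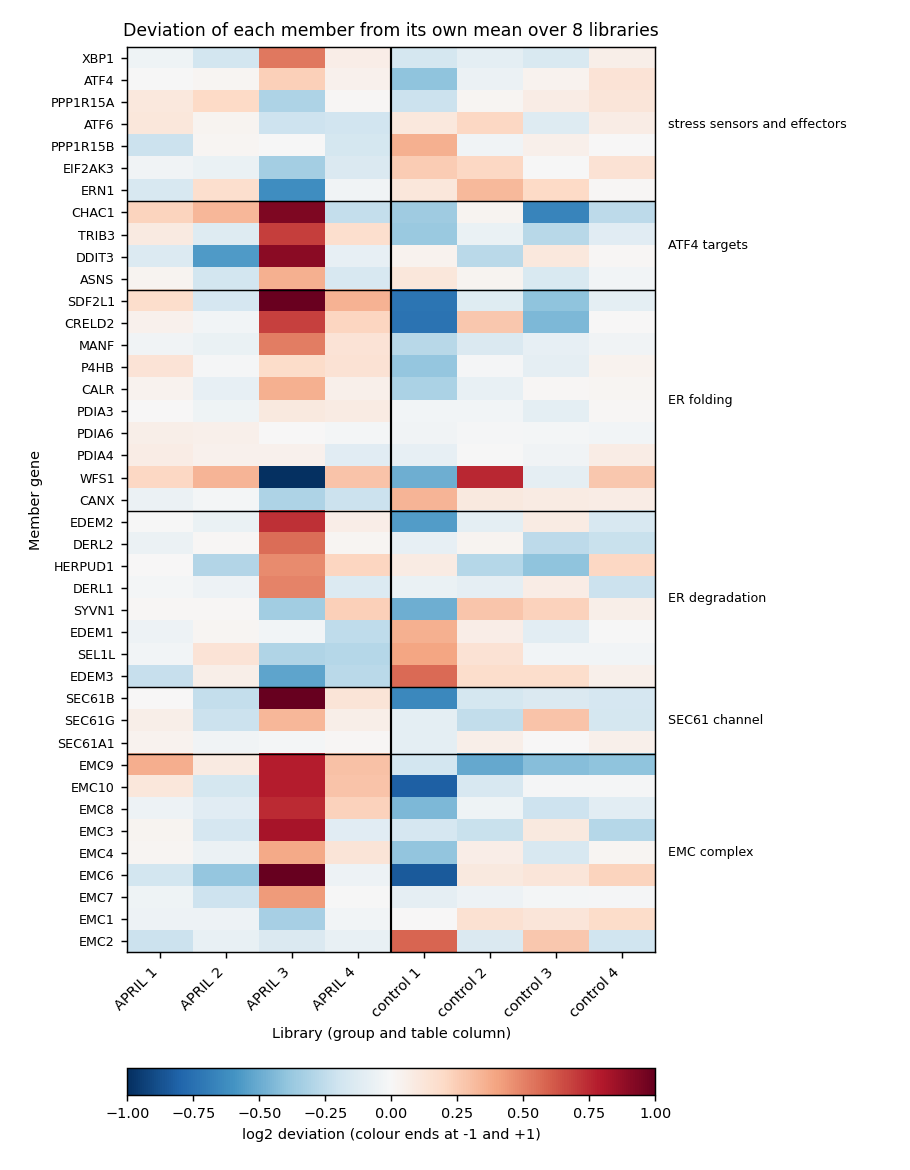
Deviation of each of the 41 members (vertical axis, by class) from its mean over the 8 libraries, in log2 units by colour; APRIL columns 1 to 4 stand left of control columns 1 to 4. APRIL column 3 holds the highest value for 25 members and the lowest for 9.

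The 3 sensors all had negative changes, and their unadjusted p-values lay on both sides of 0.05. EIF2AK3, which encodes PERK, stood at 4.84, 4.81, 4.53 and 4.73 in APRIL libraries, against 5.13, 5.08, 4.87 and 5.02 in control libraries. The groups did not overlap, but the highest APRIL and the lowest control value were 4.84 and 4.87. The change was -0.30 ± 0.13 (unadjusted p = 0.0458, limma), and it rests on between 14 and 111 reads a library. ERN1, which encodes IRE1alpha, stood at 8.79, 9.12, 8.33 and 8.91 in APRIL libraries, against 9.06, 9.27, 9.15 and 8.95 in control libraries. APRIL column 3 was far below the rest, and the change was -0.32 ± 0.17 with it and -0.17 without it. ATF6 stood at 7.35, 7.27, 7.03 and 7.05 in APRIL libraries, against 7.35, 7.45, 7.11 and 7.32 in control libraries. The ATF6 groups overlapped over most of their range (-0.13 ± 0.13, or -0.08 without APRIL column 3).

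The transcription factors downstream of the sensors differed by no more than the spread between libraries. XBP1 stood at 9.31, 9.17, 9.88 and 9.42 in APRIL libraries, against 9.17, 9.26, 9.20 and 9.41 in control libraries. The change of +0.19 ± 0.16 came down to +0.04 without APRIL column 3, whose value was the highest of the 8. ATF4 stood at 5.61, 5.63, 5.84 and 5.65 in APRIL libraries, against 5.21, 5.55, 5.64 and 5.75 in control libraries, a change of +0.15 ± 0.15, or +0.09 without APRIL column 3. The highest ATF4 value was in APRIL column 3 and the lowest in control column 1, and without both libraries the change was -0.02. PPP1R15A (GADD34) and PPP1R15B (CReP) encode the subunits that direct phosphatase to eIF2alpha and so restore translation. PPP1R15A gave 0.00 ± 0.14, or +0.11 without APRIL column 3, and PPP1R15B -0.19 ± 0.13.

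All 4 ATF4 targets in the table had a positive change, with a median of +0.24. All 4 were highest in APRIL column 3, as were 33.6% of all tested genes. Without that library the median was +0.07 and 2 of the 4 were positive. CHAC1, a glutathione-degrading enzyme, stood at 5.50, 5.61, 6.21 and 5.04 in APRIL libraries, against 4.92, 5.30, 4.62 and 5.01 in control libraries. Its change was +0.63 ± 0.24 (unadjusted p = 0.0263, limma) and +0.42 without APRIL column 3. CHAC1 was counted on 5 to 31 reads a library, so counting alone gives an SD of 0.65 log2 units in the library with the fewest. TRIB3, a pseudokinase that restrains the ATF4 pathway, stood at 4.53, 4.31, 5.13 and 4.61 in APRIL libraries, against 4.07, 4.37, 4.16 and 4.33 in control libraries. The TRIB3 change was +0.41 ± 0.18 (unadjusted p = 0.0481, limma) and +0.25 without APRIL column 3. DDIT3, which encodes the pro-apoptotic factor CHOP, stood at 7.01, 6.57, 8.04 and 7.06 in APRIL libraries, against 7.18, 6.88, 7.25 and 7.15 in control libraries. DDIT3 gave +0.06 ± 0.27 with APRIL column 3 and -0.23 without it. The 3 other APRIL values of DDIT3 all lay at or below 7.06, and only control column 2 was lower than that among controls. ASNS, asparagine synthetase, gave +0.01 ± 0.14, or -0.10 without APRIL column 3.

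**Figure D2:**
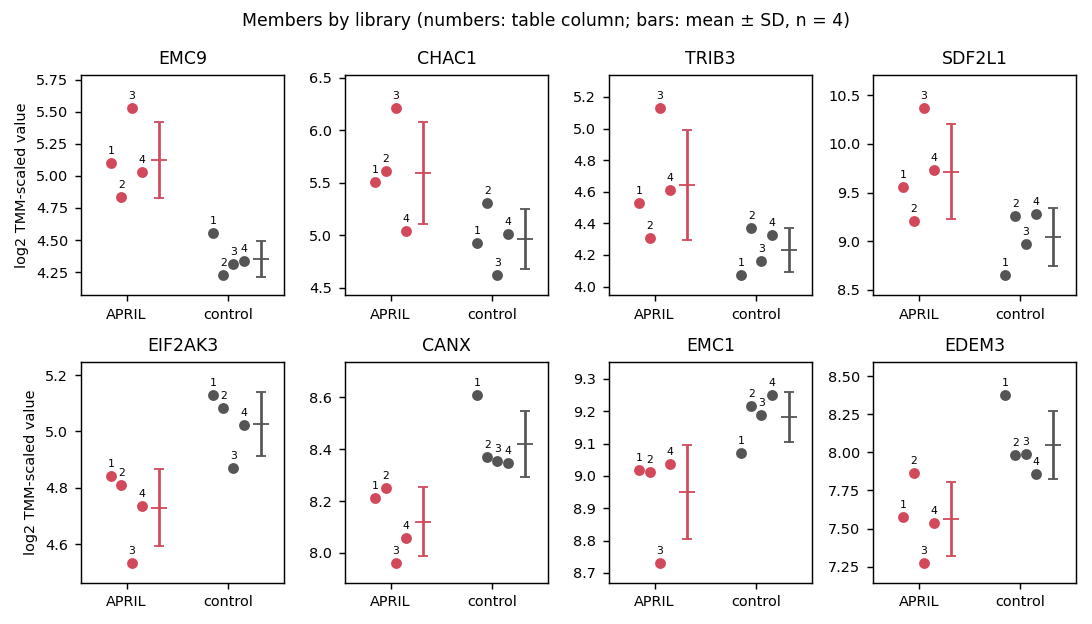
Deposited log2 values (vertical axes) of 8 members by library, 1 point a library with its column number, APRIL left of control, and bars for mean ± SD (n = 4). EMC9 has every APRIL value above every control value, EIF2AK3, CANX and EMC1 have every one below, and APRIL column 3 is the outermost APRIL point in all 8 panels.

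Among the 10 folding genes, 8 changes were positive and 2 negative (median +0.13). Without APRIL column 3, 9 of the 10 were positive with a median of +0.12. With length and GC trends removed, 5 of the 10 were positive with a median of +0.02. The voom median of +0.28 covers only the 5 with recovered reads and is the value of MANF. MANF had +0.27 in the main fit, so that median is not comparable with the one over 10 genes. SDF2L1, a cofactor of the ER chaperone BiP whose promoter carries the ERSE-II shown above, stood at 9.55, 9.21, 10.37 and 9.73 in APRIL libraries, against 8.65, 9.26, 8.97 and 9.28 in control libraries. APRIL column 2 lay below the highest controls, and the change was +0.67 ± 0.24 (unadjusted p = 0.0177, limma) and +0.46 without APRIL column 3. CANX, calnexin, the membrane lectin that holds unfolded glycoproteins, stood at 8.21, 8.25, 7.96 and 8.06 in APRIL libraries, against 8.61, 8.37, 8.36 and 8.35 in control libraries. The 4 CANX values with APRIL all lay below the 4 of the controls, a change of -0.30 ± 0.12 (unadjusted p = 0.0309, limma), and its read counts could not be recovered. CALR, its soluble counterpart calreticulin, gave +0.18 ± 0.13, or +0.10 without APRIL column 3. CRELD2, a secreted stress-responsive ER protein, stood at 4.09, 4.02, 4.73 and 4.26 in APRIL libraries, against 3.31, 4.32, 3.60 and 4.05 in control libraries. Its control values spread more widely than its APRIL values, and the change of +0.46 ± 0.24 was +0.14 without APRIL column 3 and control column 1. MANF, a secreted ER stress protein, gave +0.27 ± 0.15, or +0.15 without APRIL column 3. Of the 4 disulfide isomerases, PDIA4, PDIA6 and PDIA3 had changes within 1 standard error of 0, at +0.02 ± 0.09, +0.05 ± 0.10 and +0.07 ± 0.09. PDIA4 was at +0.01 without APRIL column 3. P4HB had +0.22 ± 0.11 (unadjusted p = 0.0769, limma), or -0.00 with length and GC trends removed. WFS1, an ER membrane protein, was the least precise member, at -0.22 ± 0.38 on 2 to 48 reads, or +0.17 without APRIL column 3. The 5 members with an ERSE did not move one way: CANX had -0.30, and PDIA6, CALR, XBP1 and CRELD2 had +0.05, +0.18, +0.19 and +0.46.

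The 8 degradation genes were divided, with 4 positive and 4 negative changes and a median of +0.05. EDEM3, a mannosidase that trims glycans to mark misfolded glycoproteins, stood at 7.58, 7.86, 7.28 and 7.54 in APRIL libraries, against 8.37, 7.98, 7.99 and 7.86 in control libraries. The groups met at 7.86, and the change was -0.49 ± 0.16 (unadjusted p = 0.0127, limma) on 193 to 1850 reads a library. EDEM3 was the one member whose unadjusted p stayed under 0.05 in all 16 alternative analyses, which share these libraries, and the largest was 0.0331. EDEM2, its family member that starts the trimming, stood at 2.19, 2.13, 2.93 and 2.26 in APRIL libraries, against 1.64, 2.10, 2.28 and 2.03 in control libraries. APRIL column 3 was far above the rest, and the change was +0.37 ± 0.23 with it and +0.18 without it. EDEM1 gave -0.16 ± 0.14, so the 3 EDEM genes did not share a sign. The ubiquitin ligase SYVN1 (HRD1) and its partner SEL1L gave -0.04 ± 0.20 and -0.24 ± 0.14, and SYVN1 was at +0.07 without APRIL column 3. HERPUD1, which recruits substrates to that ligase and carries an ERSE-II, gave +0.20 ± 0.19, or +0.07 without APRIL column 3. DERL1 and DERL2, derlins that form the exit path from the membrane, gave +0.15 ± 0.15 and +0.27 ± 0.18, or 0.00 and +0.13 without APRIL column 3.

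**Figure D3:**
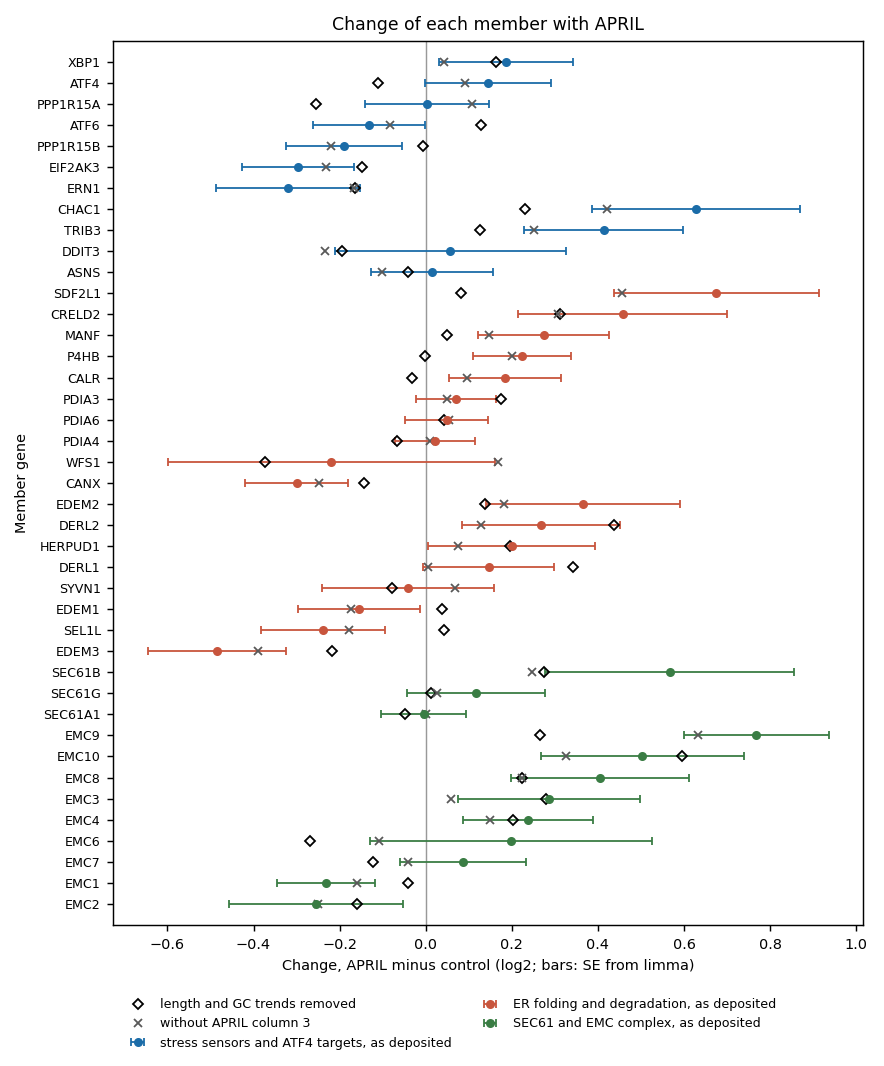
Change of each member, APRIL minus control in log2 units (horizontal axis): filled circles as deposited with the standard error from limma, coloured by class, crosses without APRIL column 3, and open diamonds with length and GC trends removed. The circles run from -0.49 for EDEM3 to +0.77 for EMC9. APRIL column 3 was singled out as extreme in these same values, so leaving it out tends to move a change towards 0. The crosses are therefore no independent check.

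The 3 SEC61 genes encode the subunits of the protein channel. SEC61A1, the pore, gave -0.0049 ± 0.10, or -0.0003 without APRIL column 3, on 601 to 3772 reads a library. SEC61B, a small accessory subunit, stood at 6.48, 6.23, 7.71 and 6.60 in APRIL libraries, against 5.82, 6.30, 6.33 and 6.30 in control libraries. APRIL column 3 was the highest and control column 1 the lowest of the 8. SEC61B gave +0.57 ± 0.29 with both, +0.25 without APRIL column 3 and +0.13 with both left out. SEC61G, the clamp-like subunit, stood at 7.39, 7.12, 7.67 and 7.39 in APRIL libraries, against 7.24, 7.08, 7.62 and 7.16 in control libraries. Its groups overlapped almost fully, and the change was +0.12 ± 0.16, or +0.03 without APRIL column 3.

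The EMC had 7 positive and 2 negative changes among the 9 subunits tested, with a median of +0.24, or +0.06 without APRIL column 3. With length and GC trends removed the median was +0.20, and 5 of the 9 were positive. EMC9, a cytosolic subunit and paralogue of EMC8, stood at 5.10, 4.83, 5.53 and 5.03 in APRIL libraries, against 4.55, 4.23, 4.31 and 4.33 in control libraries. Its APRIL values all lay above its control values, and the change was +0.77 ± 0.17, a ratio of 1.7 on the linear scale (unadjusted p = 0.000984, limma). It was +0.63 without APRIL column 3 and +0.70 without control column 1 as well. EMC9 was counted on 51, 80, 20 and 54 reads in APRIL libraries, against 25, 13, 19 and 31 in control libraries. With libraries weighted by their quality, EMC9 passed the adjusted threshold (adjusted p = 0.0414, limma). It was the only one of 41 members to do so, among 4 of 11257 genes (0.0355%), too few to compare the shares. The weights came from these same libraries and ran from 0.117 for APRIL column 3 to 5.46 for APRIL column 1, so that call leans on APRIL column 1. The unadjusted p of EMC9 was under 0.05 in 15 of the 16 alternatives, which share these libraries. With length and GC trends removed it was 0.178 (limma). EMC10, a subunit that faces the ER interior, stood at 8.41, 8.12, 9.08 and 8.58 in APRIL libraries, against 7.47, 8.13, 8.28 and 8.28 in control libraries. The EMC10 groups overlapped, at +0.50 ± 0.24, or +0.32 without APRIL column 3. EMC1, the largest subunit, stood at 9.02, 9.01, 8.73 and 9.04 in APRIL libraries, against 9.07, 9.22, 9.19 and 9.25 in control libraries. The 4 EMC1 values with APRIL lay below the 4 of the controls, by a margin of hundredths between 9.04 and 9.07, and the change was -0.23 ± 0.11 (unadjusted p = 0.0677, limma). EMC2 gave -0.26 ± 0.20, or -0.10 without control column 1. EMC3 and EMC4 gave +0.29 ± 0.21 and +0.24 ± 0.15, or +0.06 and +0.15 without APRIL column 3. EMC6, EMC7 and EMC8 gave +0.20 ± 0.33, +0.09 ± 0.15 and +0.40 ± 0.21, or -0.11, -0.04 and +0.22 without that library. MMGT1, the EMC5 subunit, which was not among the 43 symbols, gave -0.10 ± 0.16. Subunits of one complex had changes of either sign, from -0.26 to +0.77, and none passed the adjusted threshold in the main fit.

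Another 161 genes of these pathways were read beside the members, of which 150 were tested: 76 changes were positive and 74 negative, with a median of 0.00. None passed the adjusted threshold (limma, 0 of 150, with 15, or 10.0%, at an unadjusted p under 0.05, against 11.9% of all tested genes), and 0 did with voom or with libraries weighted by quality. With 1 library left out, between 4 and 31 of the 150 had an unadjusted p under 0.05. The 31 came without APRIL column 2 (background 20% of all tested genes) and the 4 without APRIL column 4 (background 5.94%). Of other genes of the ATF4 and integrated stress response, 1 of 29 was higher and 3 lower at an unadjusted p under 0.05. Over all tested genes the shares were 6.25% higher and 5.69% lower. PCK2, a mitochondrial enzyme of glucose synthesis, had +0.44 ± 0.14, against -0.56 ± 0.16 for the cystine transporter SLC7A11, -0.57 ± 0.22 for the secreted STC2 and -0.35 ± 0.15 for the amino acid transporter SLC38A2. These ATF4-responsive genes had changes of either sign. Among 16 other sensors and eIF2alpha kinase pathway genes, the adaptor TRAF2 had +0.35 ± 0.16 and the oxidative stress factor NFE2L2 -0.33 ± 0.12. Among 30 other chaperones and oxidoreductases, SDF4, DNAJC1 and CNPY3 had +0.43 ± 0.15, +0.44 ± 0.18 and +0.42 ± 0.19 (CNPY3 +0.24 without APRIL column 3), and the co-chaperone DNAJC10 had -0.40 ± 0.16. HSPA5, which encodes BiP and is the standard readout of the unfolded protein response, gave -0.03 ± 0.10, or -0.01 without APRIL column 3. HSP90B1 (GRP94) gave -0.28 ± 0.14, or -0.18 without that library. Among 33 other degradation genes, HM13 and MAN1B1 had +0.40 ± 0.17 and +0.29 ± 0.12, and UBXN4 had -0.30 ± 0.12. Among 31 other translocon and insertion genes, GET4, of the tail-anchor pathway, had +0.63 ± 0.27, and SEC63, a SEC61 partner, had -0.32 ± 0.14. These genes were picked by smallest p. With length and GC trends removed, SLC7A11, PCK2, STC2 and SLC38A2 had -0.23, +0.14, -0.49 and -0.14. TRAF2, NFE2L2, SDF4, DNAJC1, CNPY3 and DNAJC10 then had +0.03, -0.32, +0.20, +0.29, +0.06 and -0.03. HM13, MAN1B1, UBXN4, GET4 and SEC63 had +0.45, +0.26, -0.15, +0.50 and -0.07. The 11 oligosaccharyltransferase subunits, which glycosylate proteins at the channel, had 8 positive and 3 negative changes with a median of +0.22, or +0.06 without APRIL column 3, and 0 of 11 had an unadjusted p under 0.05.

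Within the members, the sign of the change went with transcript length. Against the longest annotated transcript of each gene, all 21 members at or under the median length of 2682 bases had a positive change (median +0.22), and 7 of the 20 longer ones did (35%; median -0.14). The same split over all genes gave 76.7% positive among 3332 genes at or under 2682 bases and 36.0% among 7027 longer genes. The correlation of change with length across the 41 members was -0.616 (Spearman) and -0.535 across 10359 genes, and with GC content 0.494 and 0.507. These are descriptions across genes measured in the same 8 libraries. Without APRIL column 3 the correlation with length was -0.444 across members and -0.371 across all genes, and that with GC content 0.650 and 0.645. The trends of all genes with length and GC content were then removed from each library. The correlation with length was then -0.050 across members and -0.025 across all genes. Such small values follow from the removal itself, which would also take out any APRIL change that went with length or GC content. The members' median change was +0.04 after the removal. In that analysis EMC9 had +0.26, SDF2L1 +0.08, CHAC1 +0.23, TRIB3 +0.13, EIF2AK3 -0.15, CANX -0.14, EMC1 -0.04 and EDEM3 -0.22. DERL2 and EDEM3 were the 2 members at an unadjusted p under 0.05 (limma, 4.88%, background 8.26%). SEC61B (687 bases), SDF2L1 (865 bases) and EMC9 (953 bases) were 3 of the shortest members, and ERN1 (7876 bases) and EDEM3 (6898 bases) were among the longest. EMC10, with a longest annotated transcript of 9446 bases, was 1 of the 7 longer members with a positive change. It had +0.60 with the trends removed, and which transcript these cells expressed was not tested. The part of length, GC content and library depth in the changes was not tested beyond these values.

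**Figure D4:**
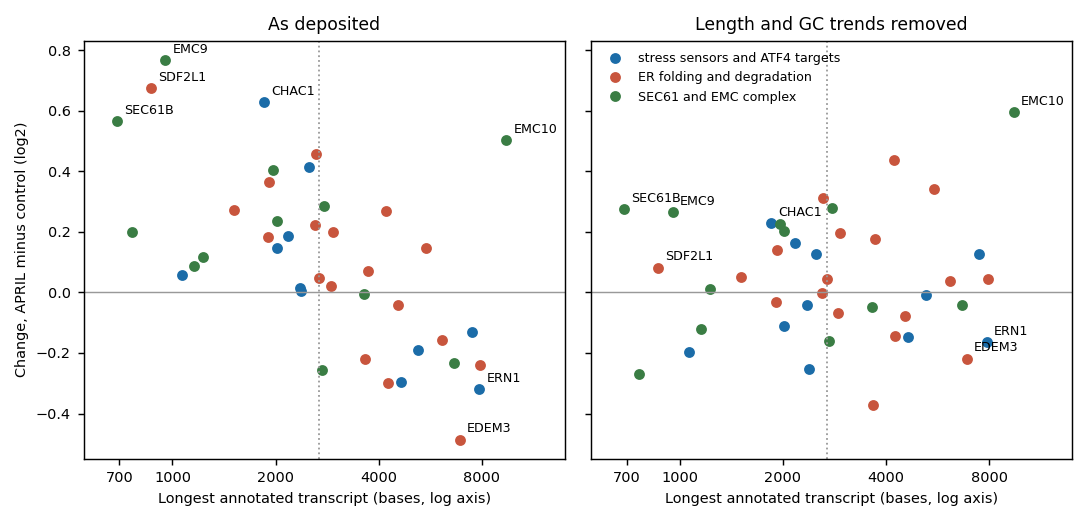
Change of each member, APRIL minus control in log2 units, against its longest annotated transcript in bases (log axis), as deposited (left) and with the length and GC trends of all genes removed from each library (right); the dotted line is the median length of 2682 bases. All 21 members at or left of the line are positive in the left panel, and the correlation with length is -0.050 in the right panel. The removal itself makes that correlation small.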

How the data were processed

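The submitters' processing notes name bcl2fastq, TopHat2 2.0.13 and build hg19. The sources used here give neither the read counter nor the gene annotation, and the kit does not mark strand, so reads of overlapping, antisense or near-identical genes may be shared. Per the file headers, the authors deposited TMM-scaled values per library, which are log2 values from their range of -4.96 to 15.4, and a p-value and a linear fold (ratio) for each gene. Recomputation from the 8 log2 values gave the deposited p-values to within 8.78e-06.

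A gene entered the test if 4 or more libraries reached a linear value of 1 (11257 genes; 273 left out). The test was limma 3.58.1 (R 4.3.3) with group as its only term, a mean-variance trend and robust empirical Bayes, two-sided, with Benjamini-Hochberg adjustment over all of them and a threshold of 0.05. The fit was tested on simulated data. Whole reads were recovered from the steps of the values for 11153 of 11530 genes (96.7%) and for 0 of 500 genes with moved constants. They gave the depth, and fed voom as an alternative. Each gene carried its own divisor in the values, so levels were not compared between genes. For the same reason the filter and the mean-variance trend do not follow read number alone. Transcript lengths and GC content came from GENCODE 29. Tables and plots were made in Python 3.11.15 (pandas 2.3.3, numpy 2.4.6, matplotlib 3.10.9).

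The members and the 6 lists of other pathway genes were chosen with earlier results of these data known. Members given library by library were those at an unadjusted p under 0.05, those whose groups did not overlap, the 2 largest changes in each of 6 subclasses, the 3 sensors, XBP1, ATF4 and DDIT3. From each other list came up to 5 genes by smallest unadjusted p under 0.05, and HSPA5, HSP90B1 and MMGT1. The closing section gives the effect of 16 alternatives.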

Additional observations from a re-analysis of the deposited data

Results flagged for a closer look

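In 8 of 82 groups of 4 libraries, 1 library lay far from the other 3: the gap to its neighbour, as a share of the group's range, was above Dixon's 95% critical value for 4 samples. Chance flags about 1 in 20 groups. APRIL column 3 was the library in 4 of the 8 and control column 1 in 3.

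APRIL column 3 was lowest for WFS1 at 2.70 (share 0.919) and EMC1 at 8.73 (share 0.921). It was highest for DERL2 at 2.94 (share 0.875) and EDEM2 at 2.93 (share 0.83). Control column 1 was lowest for SEC61B at 5.82 (share 0.94) and EMC6 at 4.52 (share 0.886), and highest for CANX at 8.61 (share 0.9). PDIA4 was lowest in APRIL column 4 at 12.14 (share 0.842).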

How the results depend on the processing

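No paired analysis was possible because the library columns carry no replicate number. With library quality weights, 1 member and 4 genes passed the adjusted threshold, against 0 and 0. Members at an unadjusted p under 0.05 numbered 3 to 10 with 1 library left out and 2 with the length and GC trends removed; all genes numbered 507 to 2247 of 11257 and 856 of 10359. The median of stress sensors and ATF4 targets was -0.084 to 0.079 with 1 library left out, -0.060 without APRIL column 3 and control column 1, -0.041 with the trends removed and -0.011 with voom. For EDEM3, EMC9 and SDF2L1 an unadjusted p under 0.05 was found in 16, 15 and 14 of 16 alternatives. It was found in 11 of 15 for CANX, and in 10, 6 and 5 of 16 for CHAC1, TRIB3 and EIF2AK3. Of 41 members, 26 kept their sign in each of the 16 alternatives that gave them a value and 15 turned in at least 1. The cause was not tested. Turned with the trends removed were ATF6 0.13, ATF4 -0.11, PPP1R15A -0.25, DDIT3 -0.20, ASNS -0.041, CALR -0.031, PDIA4 -0.068, P4HB -0.00096, SEL1L 0.043, EDEM1 0.038, EMC6 -0.27, EMC7 -0.12, HSPA5 0.066 and MMGT1 0.045, and the medians of the other ATF4 genes, -0.087, and other sensors, 0.050. With quality weights these were ATF6 0.0099, ATF4 -0.020, DDIT3 -0.17, WFS1 0.012, EMC6 -0.28, EMC7 -0.029, HSPA5 0.0021 and MMGT1 0.015, and the medians of ER degradation, -0.0049, other ATF4 genes, -0.010, and other chaperones, 0.0075. With voom they were DDIT3 -0.12, ASNS -0.011, WFS1 0.051, SYVN1 0.020 and SEC61A1 0.024, and the median of other chaperones, 0.0028. Without APRIL column 3 and control column 1 they were ATF4 -0.019, DDIT3 -0.21, ASNS -0.060, PDIA4 -0.013, EMC6 -0.35 and EMC7 -0.057, and the medians of ER degradation, -0.036, other ATF4 genes, -0.055, and other sensors, 0.0079. With libraries centred on their medians, PPP1R15A was -0.0062 and the median of other ATF4 genes -0.0089, and with the stricter filter that median was -0.018. With 1 library left out, ranges that crossed 0 were -0.069 to 0.11 for PPP1R15A, -0.23 to 0.26 for DDIT3, -0.10 to 0.079 for ASNS, -0.0023 to 0.064 for PDIA4, -0.42 to 0.17 for WFS1, -0.21 to 0.067 for SYVN1, -0.039 to 0.014 for SEC61A1, -0.11 to 0.36 for EMC6, -0.040 to 0.17 for EMC7 and -0.19 to 0.0068 for MMGT1. Ranges of medians that crossed 0 were -0.056 to 0.016 for other ATF4 genes, -0.011 to 0.055 for other degradation genes and -0.0027 to 0.12 for translocon genes. The 95% interval of a member's change reached a median of 0.35 to either side.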
